A study of Phanerodontia chrysosporium with 12 samples.

Results

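In cultures of the white-rot fungus Phanerochaete chrysosporium given oak extractives, 91 of 13602 gene models were higher at 3 h and at 6 h than at the start and at 1 h. They were chosen from the measured levels. Levels are CPM, the reads of a model per 1000000 reads of the library outside a pair of dominant models, proteins 3014073 and 2891358, and L is log2(CPM + 2). A member had a mean of at least 10 CPM in some group, a mean L at 3 h and at 6 h each at least 1 above both T0 and 1 h, and every library at 3 h and 6 h above every library at T0 and 1 h. Of the 91 members, 83 were less than 1 above T0 at 1 h and are called late-only here, and 8 were already 1 or more above T0 at 1 h and are called early. The levels at T0, 1 h, 3 h and 6 h that chose the members are therefore given as a description.

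All cultures were of the homokaryon RP78, kept still in 20 ml of a glucose minimal medium at 37 °C for 4 days, and all received an acetone extract of Quercus petraea heartwood at 100 µg/ml with DMSO as its solvent. By the labels, the 4 groups differ in the time to harvest alone, which was immediate for T0 and otherwise 1, 3 or 6 h. Each holds 3 cultures that the labels call biological replicates. Exposure and time in culture cannot be told apart, since DMSO-only cultures were not analysed here. RNA came from whole mycelium, in which fewer cells of a kind and less RNA per cell cannot be told apart.

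White-rot basidiomycetes live on wood and meet its extractives, among them tannins and other phenolic compounds that are toxic to many fungi. In fungi such compounds are commonly oxidised by cytochrome P450s, conjugated by glutathione transferases and exported by membrane transporters. Responses to a chemical can come in waves, with transcripts that change within minutes and others that change only after hours. The files do not pair the protein IDs with gene names or sequences, so no function is given to any member. What can be described is how the 91 models behaved over time, how abundant and how long they were, and how many reads lay behind them.

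Total gene reads ran from 2137932 (1 h replicate 2) to 10697807 (3 h replicate 1). The dominant pair took 4.31%, 46.8% and 50.9% of the reads in T0 replicates 1 to 3 and 9.61%, 65.9% and 45.0% at 1 h. At 3 h it took 3.12%, 15.7% and 4.12%, and at 6 h 15.6%, 10.9% and 18.2%. All other models shared between 729521 (1 h replicate 2) and 10364009 (3 h replicate 1) reads, so 3 reads stood for 4.11 and 0.289 CPM in these libraries. Low members were thus measured least precisely before 3 h. In T0 replicates 2 and 3, 14 and 16 of the 91 members had fewer than 10 reads, in 1 h replicate 2 20, and in 1 h replicate 3 5, against 0 in each of the other 8 libraries. These limits cover counting error only.

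Of the 9447 gene models with a group mean of 10 CPM or more, 123 had a rise of at least 1, where rise is the lower of the mean L at 3 h and 6 h minus the higher of those at T0 and 1 h. In 32 of the 123 the libraries overlapped, which left the 91. Another 2 models met all conditions except the 10 CPM. The median rise of the members was 1.36, or 2.57-fold, with quartiles of 1.15 and 1.71. It was between 1 and 1.5 in 58 members, between 1.5 and 2 in 22, and 2 or more in 11.

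**Figure D1:**
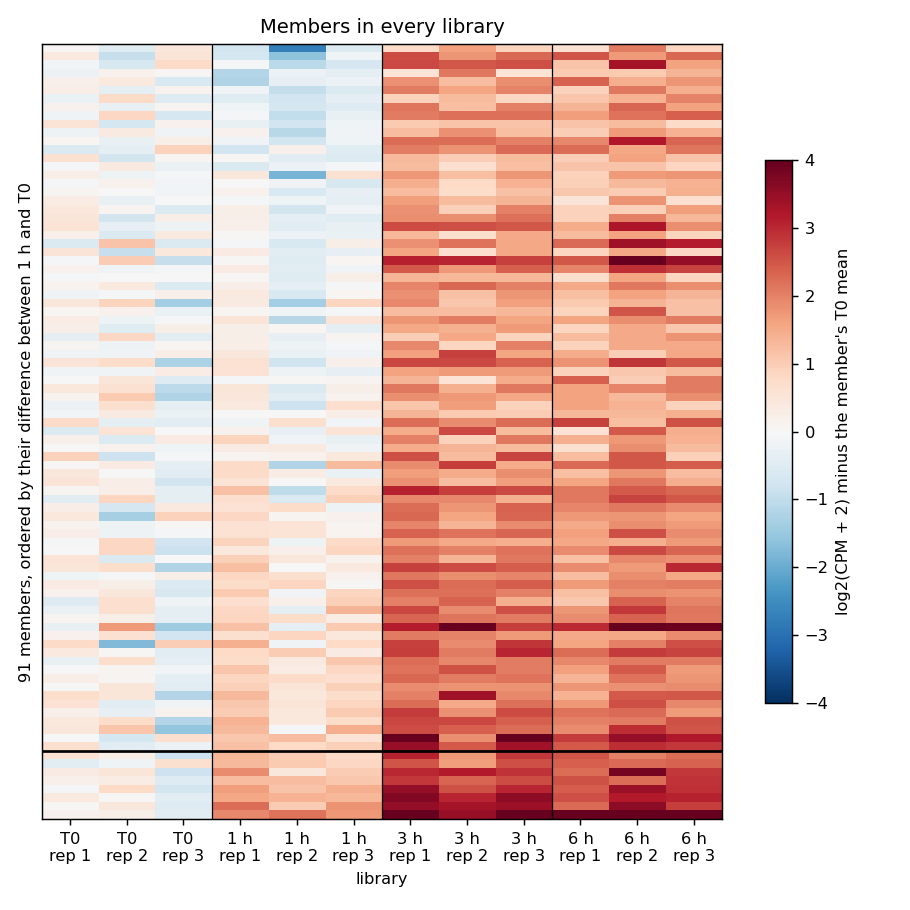
Each row is one of the 91 members and each column a library. Colour is log2(CPM + 2) minus the member's mean at T0, with colours ending at -4 and 4. Rows are ordered by the difference between 1 h and T0, and the 8 early members lie under the horizontal line. In the late-only rows the largest step in the mean falls between the 1 h and the 3 h columns, and some of these rows also rise at 1 h.

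The members lay close to the threshold in part. Protein 2462947 had the smallest rise, 1.0007, and went from 226 ± 113 CPM at T0 and 144 ± 18.4 CPM at 1 h to 426 ± 70.6 CPM at 3 h and 613 ± 195 CPM at 6 h (SD, n = 3 per time here and for all CPM values below). Next to it were protein 3002754 at 1.002 and protein 3024889 at 1.003. Just outside were proteins 2988893 (0.987), 2967030 (0.985) and 2969561 (0.983), which met every other condition. There were 17 members with a rise under 1.1 and 18 models between 0.9 and 1 that met the other conditions, so the list has no natural edge there. Its size also rests on the scaling: 250 models met the rule with CPM of all reads, 85 of them members, and under this scaling the pair's reads count towards each total.

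Protein 2966528 (474 nt) had the largest rise and the most reads of all members. It was at 756, 1601 and 420 CPM in T0 replicates 1 to 3 and at 819, 573 and 837 CPM at 1 h. At 3 h it was at 6926, 6620 and 5330 CPM, and at 6 h at 4482, 13597 and 9251 CPM. The lowest library at 3 h or 6 h was thus well above the highest at T0 or 1 h, and the spread was widest at 6 h. Its mean L rose by 2.97 from T0 to 3 h and by 3.37 to 6 h. Per kilobase of its length, its mean was 1953 CPM in the T0 group, then 13274 CPM at 3 h and 19219 CPM at 6 h, the highest per-kilobase level of the 91 members at both times.

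Protein 3037442 (703 nt) was the late-only member with the next largest rise, 2.67. It had 46.0, 190.0 and 19.6 CPM at T0 and 131, 43.9 and 119 CPM at 1 h. The 3 h libraries held 512, 931 and 397 CPM, and the 6 h libraries 462, 1258 and 882 CPM. The T0 libraries spread widely, and T0 replicate 2 lay above all libraries at 1 h. Protein 2959256 (795 nt) started at 395, 454 and 113 CPM and stood at 418, 158 and 316 CPM after 1 h. It had 1753, 1724 and 1423 CPM by 3 h, then 961, 1986 and 1525 CPM by 6 h. T0 and 1 h overlapped, as did 3 h and 6 h. Protein 2899951 (1536 nt) started low, with 9.50, 5.00 and 16.3 CPM at T0 and 22.3, 24.7 and 14.5 CPM at 1 h. Its mean L was already 0.95 above T0 at 1 h, just under the 1 that splits early from late-only members. It reached 190, 39.2 and 184 CPM at 3 h and 76.7, 129 and 103 CPM at 6 h. In 3 h replicate 2 it was far under the other libraries of that time, but still above every library at T0 and 1 h.

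Protein 2944001 (1944 nt) was among the members with the most reads. Its T0 libraries held 1376, 999 and 1106 CPM and its 1 h libraries 1774, 1668 and 1271 CPM. The 3 h libraries held 5919, 5170 and 5762 CPM, a narrow spread, and the 6 h libraries 3562, 6903 and 4269 CPM. Protein 2983689 (1186 nt) had means of 482 ± 270 CPM before and 618 ± 144 CPM after 1 h, then 1890 ± 138 CPM by 3 h and 2155 ± 531 CPM by 6 h. In both, the spread was wider at 6 h than at 3 h.

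**Figure D2:**
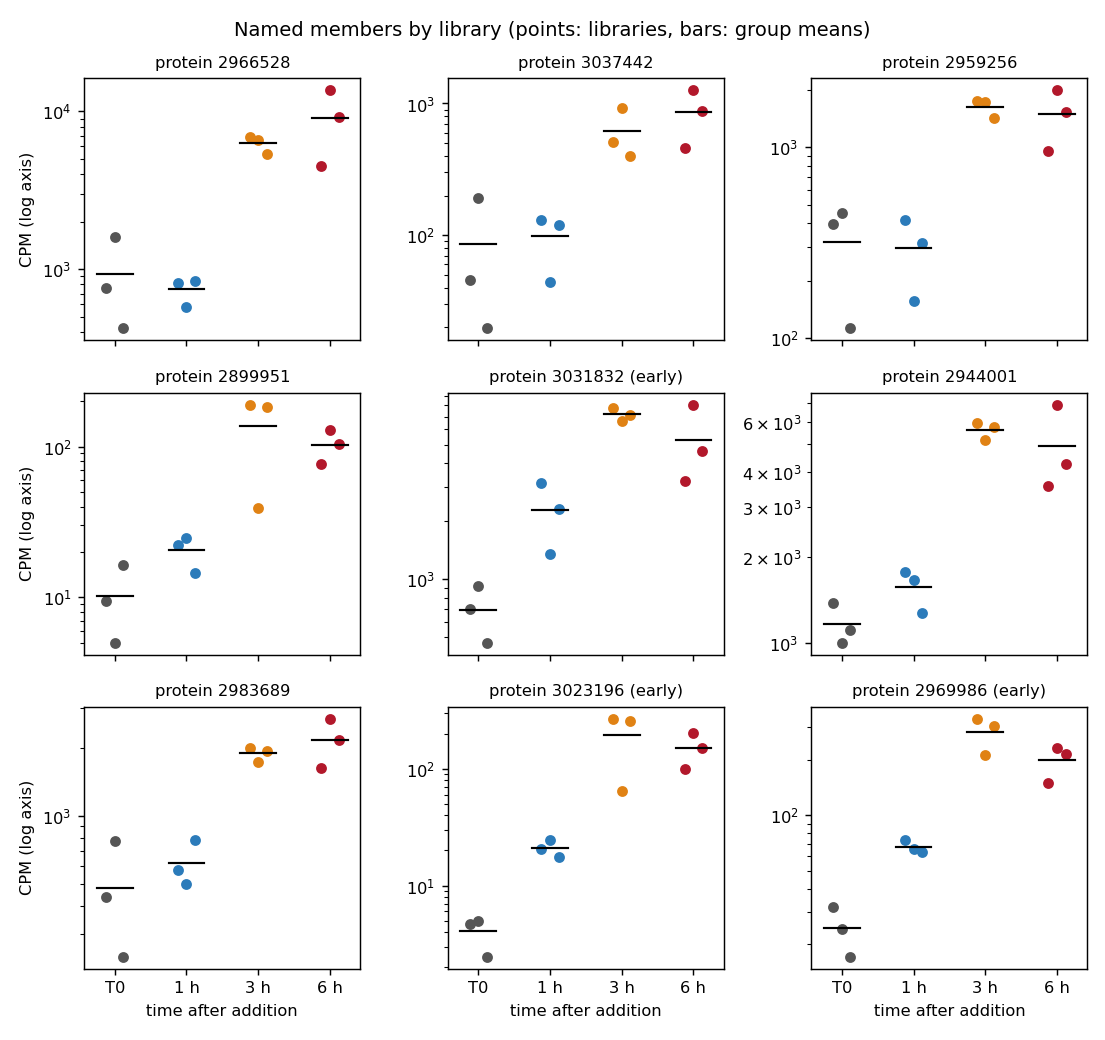
CPM on a log axis for 9 members, those with the largest rise, the most reads or, among the early members, the largest difference at 1 h. Points are libraries and bars group means, by time after the addition. All points at 3 h and 6 h lie above all points at T0 and 1 h, as the rule demands. The 3 early members have intermediate levels at 1 h, which the split selects for.

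The reads were concentrated in few members. Proteins 2966528 and 3031832 together held between 9.53% (T0 replicate 3) and 34.0% (6 h replicate 2) of the members' reads, and the 10 with the most reads held between 50.2% and 68.5% in the same libraries. Together the 91 members held 1.18%, 1.30% and 0.933% of the remaining reads in the T0 libraries, and 1.62%, 1.09% and 1.35% at 1 h. At 3 h they held 5.25%, 4.68% and 4.80%, and at 6 h 3.48%, 6.38% and 4.80%. The rise in this sum follows from how the members were chosen. The rule set no condition on the spread within a time, but it bounded how low a 3 h or 6 h library could be. The sum spread more at 6 h (4.89% ± 1.46) than at 3 h (4.91% ± 0.300). Without the leading pair the members held between 0.844% and 1.22% in libraries of T0 and 1 h and between 2.70% and 4.21% in those of 3 h and 6 h.

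The share of the dominant pair moved with time too. T0 replicate 1, with 4.31% of its reads in the pair, had 1.18% in the members, while 3 h replicate 2 and 6 h replicate 1, with 15.7% and 15.6% in the pair, had 4.68% and 3.48%. The rule put every member higher in each library of 3 h and 6 h, so this contrast was set by the choice of members. Time in culture, the pair's share and the depth left outside the pair differ between the groups. Their part in the members' levels was not tested.

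**Figure D3:**
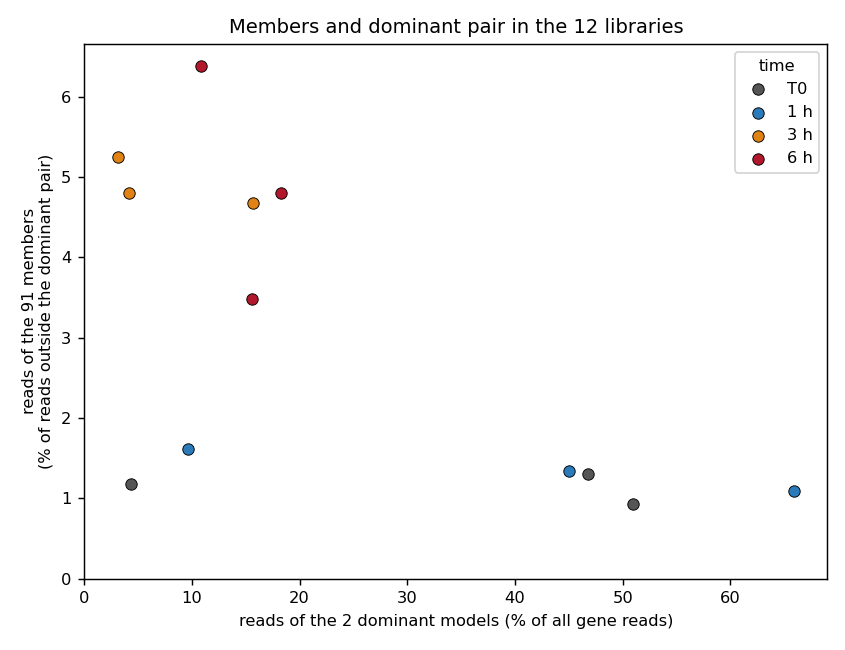
Each point is a library, coloured by time. The horizontal axis is the share of all gene reads in the dominant pair, and the vertical axis the share of the remaining reads in the 91 members. Libraries of T0 and 1 h lie at or under 1.62%, and those of 3 h and 6 h at or above 3.48%. The rule fixes this gap, since it set every member apart in this way.

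Read counts were tested with edgeR's quasi-likelihood test across all 11813 models that passed a filter on low counts, with all 12 libraries in the fit, and a model was called at a Benjamini-Hochberg adjusted p under 0.05. All 91 members passed the filter. In the comparisons that the rule itself used, 83 members were called higher at 3 h against T0 (4.97% of all models tested) and 83 at 6 h against T0 (4.35%). At 3 h against 1 h 69 were called higher (1.9% of all models), and at 6 h against 1 h 71 (2.71%). The members were chosen on these same differences, and the comparisons share libraries, so the counts only describe how many members pass a test that weighs the spread. In all 4 comparisons 58 members were called. Those called in none of the 4 were proteins 1124600, 2185167 and 3029014, named after their values were seen. The first 2 had no read in T0 replicate 3, and 3029014 is the shortest member at 270 nt.

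The calls against 1 h were the less settled ones. At 3 h against 1 h the count of 69 went to 36 without 1 h replicate 2 or without 1 h replicate 3. It went to 40 without 3 h replicate 1 and to 42 without 3 h replicate 3. Over all models tested, the 225 called higher went to 119, 81, 95 and 94 in these fits. With the pair's log2 share added as a covariate, a setting chosen after the data were seen, 27 members and 77 models were called higher. The same fit called 67 members and 313 models higher at 6 h against 1 h. Against T0 it called 68 members and 355 models at 3 h and 88 members and 597 models at 6 h. At 6 h against 1 h the count of 71 went to 42, 41 and 41 without 1 h replicate 1, 2 or 3. Without 6 h replicate 2 it was 43. Over all models, 320 calls higher went to 125, 188, 129 and 218 in these fits, so calls were lost outside the members too. All members called in these fits were higher, which follows from the rule and is no sign of stability.

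The difference between 1 h and T0 was not itself a condition of membership, but the rule required low levels at both times. The medians and shares given here and the test of 1 h against T0 below therefore rest on levels that the rule used. Over the 91 members the median of mean L at 1 h minus T0 was 0.13, against -0.06 over the 9447 models at 10 CPM or more. In the edgeR fit the median log2 fold change was 0.27 over the members and 0.01 over all models tested. Among the 83 late-only members, where the split removes the higher values, the median was 0.06. The members' median was -0.01 with CPM of all reads, where that of all models was -0.22. By their difference at 1 h the members form a range and not separate groups: 7 were 0.5 or more below T0, 53 were within 0.5 of it, 23 were 0.5 to 1 above and 8 were 1 or more above. Over all models at 10 CPM or more, 24.3% were 0.5 or more below and 20.3% were 0.5 or more above, against 7.69% and 34.1% of the members.

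**Figure D4:**
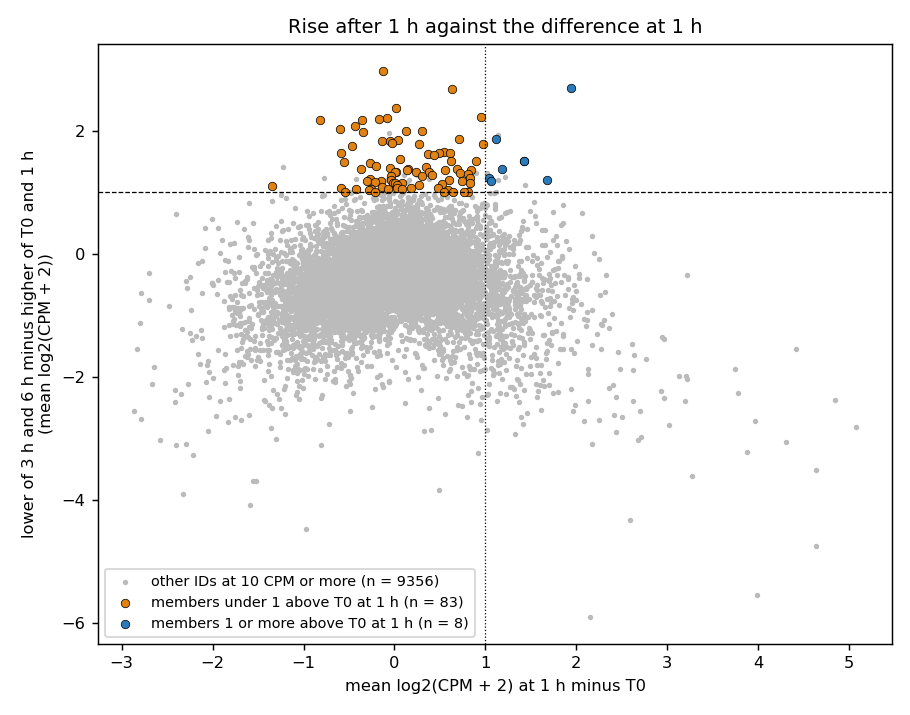
Each point is a gene model at 10 CPM or more. The horizontal axis is the mean log2(CPM + 2) at 1 h minus T0, and the vertical axis is the rise after 1 h. Lines mark differences of 1. Orange points are the 83 late-only members and blue points the 8 early members. Grey points above the horizontal line are models whose libraries overlapped.

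In the edgeR quasi-likelihood test of 1 h against T0, 6 members were called higher (6.59%), against 3.1% of all models tested, and 0 were called lower, against 3.15%. At an unadjusted p under 0.05 there were 19 of the 91 members and 2610 of the 11813 models tested, a similar share. DESeq2 called 10 members higher and limma-voom 5, against 665 and 393 of all models. Leaving out T0 replicate 1, T0 replicate 3, 1 h replicate 1 or 1 h replicate 3 brought the edgeR count to 2. Leaving out T0 replicate 2 brought it to 10, so single libraries decide it. Calls higher over all models moved alongside, from 366 to 159, 162, 179 and 132 in that order. Without T0 replicate 2 they were 742. In 13 members (14.3%) all libraries at 1 h lay above all at T0, against 12.3% of the models at 10 CPM or more. In 1 member, protein 2903762, all libraries at 1 h lay below all at T0, against 14% of those models.

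All 6 members called higher at 1 h were early members, which the split selects for this difference. Protein 3023196 (1332 nt) had the largest difference at 1 h and started lowest of the named early members. It was at 4.69, 5.00 and 2.45 CPM at T0, from 41, 8 and 3 reads, and at 20.5, 24.7 and 17.6 CPM at 1 h. At 3 h it reached 268, 64.5 and 256 CPM, and at 6 h 99.9, 202 and 151 CPM. The groups at T0, 1 h and the later times did not overlap. Its mean L was 1.94 above T0 at 1 h and 4.81 above T0 at 3 h.

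Protein 3031832 (828 nt) was the most abundant early member. It was at 699, 921 and 468 CPM at T0 and at 3159, 1358 and 2330 CPM at 1 h. At 3 h it was at 7737, 6679 and 7157 CPM, and at 6 h at 3255, 8086 and 4620 CPM. Here 1 h replicate 1 came within 0.04 on the log2(CPM + 2) scale of 6 h replicate 1, one of the closest approaches among the members. Protein 2969986 (1089 nt) began at 31.8, 24.4 and 17.1 CPM and had 73.7, 65.8 and 63.0 CPM after 1 h. It had 334, 212 and 304 CPM after 3 h and 150.4, 231 and 215 CPM after 6 h. Its groups at T0, 1 h and the later times stood apart.

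In the edgeR quasi-likelihood test of 1 h against T0 with Benjamini-Hochberg adjustment, protein 2969986 was 1.51 higher in log2 (SE 0.282, adjusted p = 0.00528) and stayed called in all 21 other settings. Protein 3023196 was 2.34 higher (SE 0.515, adjusted p = 0.0143 by the same edgeR test). It lost the call without T0 replicate 1, without T0 replicate 3 and with limma-voom, and its adjusted p over the settings ran from 0.00023 to 0.129. Protein 3031832 was 1.76 higher (SE 0.438, edgeR adjusted p = 0.0271). It lost the call without T0 replicate 1 or 3 or without 1 h replicate 1 or 3, with a range from 0.000324 to 0.118.

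The other early members were proteins 2977526, 2901306, 2934788, 2932699 and 2886701. Their differences at 1 h lay between 1.04 and 1.42, and the last 2 were not called at 1 h (edgeR, Benjamini-Hochberg adjusted p = 0.122 and 0.14). Over the 8 early members, 36.7% to 49.2% of the log2 rise from T0 to 3 h had been reached at 1 h. The median over all 91 members was 7.61%. The split and the rule shape this contrast. Early members were chosen to be 1 or more above T0 at 1 h, and late-only members to be less. All had to rise by at least 1 from 1 h to 3 h. For the late-only members the highest difference at 1 h was 0.97, so the border between both classes is a point on a range.

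Some late-only members were lower at 1 h than at T0. Protein 2903762 (1344 nt) had the lowest difference, -1.34, with 11.9, 7.50 and 16.3 CPM at T0 and 6.01, 0 and 7.27 CPM at 1 h. The value of 0 in 1 h replicate 2 allows up to 4.11 CPM. It was then at 21.0, 40.1 and 22.7 CPM at 3 h and 18.5, 54.9 and 22.4 CPM at 6 h. This difference did not pass the edgeR quasi-likelihood test (Benjamini-Hochberg adjusted p = 0.358), where it was -1.06 (SE 0.635) in log2.

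Protein 2973218 (1293 nt) had a difference of -0.82 at 1 h, from 17.1, 5.62 and 18.8 CPM to 6.95, 2.74 and 10.9 CPM. T0 replicate 2 lay among the libraries at 1 h, so these groups overlapped. It was at 85.4, 47.1 and 68.5 CPM at 3 h and at 81.2, 44.6 and 69.8 CPM at 6 h. The edgeR estimate was -0.81 in log2 (SE 0.437, Benjamini-Hochberg adjusted p = 0.2997). Over the 7 members at or below -0.5, the median L relative to T0 was -0.59 after 1 h, 1.64 after 3 h and 1.50 after 6 h.

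The difference between 3 h and 6 h was not itself a condition either, but both times had to be high. Models high at a single one of these times were left out. The calls, medians and shares for 6 h against 3 h thus rest on levels that the rule used. The edgeR quasi-likelihood test of 6 h against 3 h called 0 members, and 0% of all 11813 models. DESeq2 and limma-voom also called 0 members, and over all models DESeq2 called 4 and limma-voom 0. At an unadjusted p under 0.05 in edgeR there were 2 members and 426 models. The lowest adjusted p among the members was 0.996. Their log2 fold changes ran from -0.70 to 1.25, with SEs from 0.232 to 0.662 and a median SE of 0.354.

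These tests do not show that levels were the same at both times. A 95% interval from the t distribution reached a median of 0.82 on the log2 scale to either side, and for 46 of the 91 members it lay within 1 of 0 on both sides. For the other members a 2-fold difference between 3 h and 6 h lay inside the interval in at least one direction. The median of mean L at 6 h minus 3 h was -0.11 over the members and -0.08 over all models at 10 CPM or more. In the edgeR fit, which uses TMM scaling, the members' median log2 fold change was 0.02 and that of all models tested -0.02. With limma-voom these medians were -0.01 and -0.04, and the median of mean L from TMM-scaled CPM was -0.02 over the members. The sign of this small median thus differed between estimates. Mean L was lower at 6 h than at 3 h in 62 members (68.1%) and in 60.2% of those models.

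**Figure D5:**
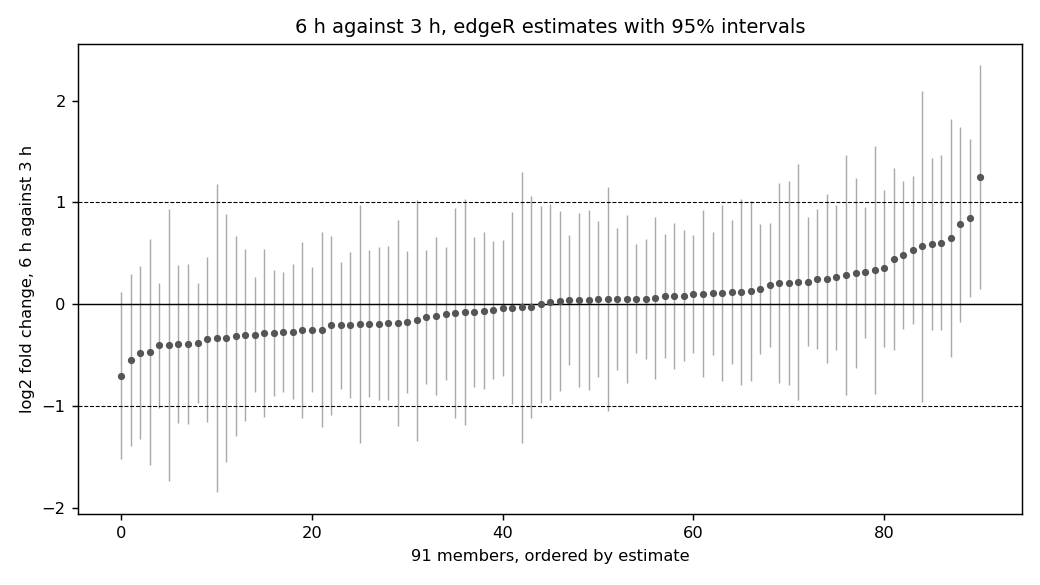
The edgeR log2 fold change of each member between 6 h and 3 h is shown with its 95% interval, in order of the estimate. Dashed lines mark 2-fold differences. Estimates run from -0.70 to 1.25. Intervals reach a median of 0.82 to either side.

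The widest difference after 3 h was in protein 3017676 (492 nt). It had 29.3, 101.2 and 29.4 CPM at T0 and 42.7, 28.8 and 53.3 CPM at 1 h. At 3 h it was at 162, 207 and 133 CPM, and at 6 h at 223, 484 and 413 CPM. All libraries at 6 h lay above all at 3 h. In edgeR it was 1.25 higher in log2 (SE 0.475), for which p was 0.0183 before and 0.996 after Benjamini-Hochberg adjustment. Protein 3058461 (1328 nt) was the other member with an unadjusted p under 0.05. It was at 119, 67.1 and 131 CPM at 3 h and at 246, 90.8 and 197 CPM at 6 h, so its groups overlapped. Its edgeR estimate was 0.85 in log2 (SE 0.336, Benjamini-Hochberg adjusted p = 0.996).

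In the other direction, protein 1634669 (894 nt) had 646, 1375 and 617 CPM at 3 h and 582, 406 and 602 CPM at 6 h. Most of its difference came from 3 h replicate 2, and edgeR estimated -0.70 in log2 (SE 0.354, Benjamini-Hochberg adjusted p = 0.996). At T0 it was at 207 ± 34.2 CPM and at 1 h at 212 ± 60.0 CPM. Protein 2471235 (811 nt) went from 43.1 ± 20.1 CPM at 3 h to 27.9 ± 18.1 CPM at 6 h, a difference within the spread.

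All libraries at 6 h lay above all at 3 h in 2 members (2.2%), proteins 3017676 and 2984518, the latter named after its values were seen. The share over the models at 10 CPM or more was 3.04%. All libraries at 3 h lay above all at 6 h in 5 members (5.49%), against 7.01% of those models. These were proteins 1634669, 2918178, 2974468, 2982249 and 3027217, of which the last 4 were named after their values were seen. The shares lie near or under those of all models.

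Within a time, the members tended to be high or low in the same library. In 6 h replicate 1, 65 of 91 members (71.4%) had their lowest value of the 6 h group, against 20.5% of the models at 10 CPM or more. In 6 h replicate 2, 58 (63.7%) had their highest, against 28.6%. At 1 h, 57 members (62.6%) were lowest in replicate 2, against 37.2%, and 55 (60.4%) were highest in replicate 1, against 38.4%. At T0, 48 members (52.7%) were lowest in replicate 3, against 34.8%, and 44 (48.4%) were highest in replicate 2, against 29.3%. At 3 h, 49 (53.8%) were highest in replicate 1, against 25.8%. The 53 (58.2%) that were lowest in 3 h replicate 2 were no larger a share than the 61.5% of those models. The members come from the same libraries, so these shares are no count of independent cases.

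The size of these shifts was moderate. The median member lay 0.30 below its group mean of L in 6 h replicate 1 and 0.24 above it in 6 h replicate 2, while the median of all models at 10 CPM or more was 0.09 above and 0.08 below. The dominant pair took 15.6% and 10.9% of the reads in these libraries and 18.2% in 6 h replicate 3, where the median member lay 0.03 above its group mean. The part of the pair, or of any other difference between these cultures, was not tested. Between replicates, the SD of L had a median over the members of 0.52 (T0), 0.40 (1 h), 0.31 (3 h) and 0.36 (6 h). Over all models at 10 CPM or more it was 0.44, 0.34, 0.28 and 0.32, so members spread slightly more at each time.

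Of the 91 members, 79 had a mean of 10 CPM or more at T0 or 1 h, and 12 reached it only at 3 h or 6 h, the groups where members are high by choice. The levels of the members before the rise are therefore a description. Their median per-kilobase level at T0 was 35.3 CPM, against 32.0 CPM over all models at 10 CPM or more, and 47 of 91 lay above that median. In the top 10% of those models there were 14 members at the start, 15 after 1 h, 41 after 3 h and 35 after 6 h. In the lowest 25% there were 27 at the start, 21 after 1 h and 4 at each later time. After 1 h the median per-kilobase level of the members was 39.1 CPM. It was 133 CPM after 3 h and 134 CPM after 6 h, values set by the choice of members.

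Members were somewhat shorter than other gene models. The median length, recovered from the deposited reads and RPKM, was 1220 nt (quartiles 792.5 and 1548), against 1356 nt (908 and 1947) for models at 10 CPM or more. Only 10 members (11.0%) were over 2000 nt, against 23.6% of those models, while 8 (8.79%) were under 500 nt, against 6.27%. Of the models over 2000 nt 0.449% were members, of those from 500 to 2000 nt 1.10% and of those under 500 nt 1.35%. The median of L at 3 h and 6 h minus T0 and 1 h was -0.06 for models over 2000 nt, -0.01 for those from 500 to 2000 nt and -0.06 for those under 500 nt. The part of length in membership was not tested.

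The longest members were protein 3051459 (2898 nt), from 13.6 ± 6.05 CPM at T0 and 11.1 ± 3.68 CPM at 1 h to 56.2 ± 8.46 CPM at 3 h and 39.5 ± 16.2 CPM at 6 h, and protein 3039398 (2818 nt), from 64.6 ± 7.82 and 65.1 ± 11.9 CPM to 213 ± 81.8 and 167 ± 36.4 CPM. The shortest were protein 3029014 (270 nt), from 34.8 ± 15.4 and 38.3 ± 18.5 CPM to 81.9 ± 23.5 and 85.3 ± 20.2 CPM, and protein 3120 (342 nt), from 38.8 ± 22.3 and 64.3 ± 23.7 CPM to 209 ± 23.2 and 164 ± 34.2 CPM.

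Few members drew on reads that also matched other models. In 76 of the 91 no read was shared. More than 10% of the reads were shared in 4 members (4.4%, against 2.68% of models at 10 CPM or more), named after these values were seen. They were proteins 2471235 (31.6%), 2911578 (23.0%), 2623086 (19.0%) and 2975262 (10.3%). Their levels are less certain, since part of their reads also matched other models. With unique reads alone, 85 models met the rule and all were members. Of these 4, proteins 2471235 and 2975262 no longer met it.

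Outside the list, the models whose 12 values of L followed the members' mean profile most closely were protein 2963061 (Pearson r = 0.977 over 12 libraries) and protein 3011868 (r = 0.958). Both had shapes like the members and smaller rises, 0.67 and 0.73. Protein 2963061 (1405 nt) had 61.2 ± 7.26 CPM to begin with, 72.5 ± 11.8 CPM after 1 h, 116 ± 14.6 CPM after 3 h and 121 ± 9.28 CPM after 6 h. Protein 3011868 (1142 nt) had 36.0 ± 4.82, 51.6 ± 12.6, 89.4 ± 6.60 and 85.4 ± 8.89 CPM at these times. The 12 libraries share the 4 times, and likeness within a time was not measured apart.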

How the data were processed

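RNA of 12 mycelium cultures was sequenced, 3 at each of T0, 1, 3 and 6 h. The authors deposited a table per sample of unique gene reads, total gene reads (counts) and RPKM values, per the file headers. No source used here names the aligner, counter, genome build, annotation or use of strand. Total counts were used as deposited, and the deposited RPKM values only to recover lengths. Replicates differed by more than sampling noise (smallest chi-square per degree of freedom 7.92) and were kept apart. Tests used edgeR 4.0.16 in R 4.3.3 (glmQLFit, TMM, filterByExpr, 8 residual degrees of freedom), checked on simulated counts. SEs are back-calculated from F. DESeq2 1.42.0 and limma 3.58.1 (voom) were alternatives, with other scalings, filters, reads and left-out libraries.

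The members, lists and tests were chosen with earlier results of these data known. Named members were those with extreme rise, reads, length or differences at 1 h or after 3 h, those nearest the threshold, and the outside models most like them. The gene lists by function could not be used, since no annotation was used here. Same-numbered libraries deviated together at 3 h and T0 (r = 0.347, 0.412 and 0.199 across genes), but not in the other comparisons, and the labels give no source of pairing.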

Additional observations from a re-analysis of the deposited data

How the results depend on the processing

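Each test had 21 other settings, and 6 h against 3 h gave 0 member calls in all of them. For 1 h against T0 the count of 6 was 10 by DESeq2 and 2 to 10 with a library left out. All models called higher ran from 132 to 742 in the latter fits. With a library left out the count was 66 to 83 at 3 h against T0 and 62 to 86 at 6 h against T0. It was 36 to 80 at 3 h against 1 h and 41 to 76 at 6 h against 1 h. Over all models, calls higher ran in the same order from 296 to 643, 241 to 741, 81 to 333 and 125 to 401. In that order the dominant pair as a covariate gave 68, 88, 27 and 67 members and 355, 597, 77 and 313 models. At 1 h against T0 it gave 8 members and 388 models. A replicate block gave 80, 79, 56 and 62 calls in these 4 comparisons, 5 at 1 h against T0 and 0 at 6 h against 3 h, and changed no count by over 1.5 times. With a library left out the rule gave 77 to 118 members and 67 to 110 late-only ones. A difference of 1.5 gave 33 and 29, and CPM of all reads 250 and 245. With reads thinned to 729521 per library, chosen after the data were seen, it gave 86 members, 71 of them shared. TMM-scaled CPM gave 95, of which 82 were shared. The members' median of 6 h minus 3 h ran from -0.23 to 0.003 with a library left out. That of 1 h minus T0 ran from 0.02 to 0.35. Depth limits low members at T0 and 1 h most.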
